A study of Homo sapiens with 8 samples.

Results

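PTPRC, CD3D, CD3E, CD2, CD4, CD8A, NKG7, GZMB, FOXP3 and CTLA4 are genes of T cells and cytotoxic lymphocytes, and these 10 of the 63241 gene rows of the count table were followed through all 8 libraries. They were chosen by name as lymphocyte genes, with earlier results of these data known. Each was matched to its row by Ensembl identifier, and its level is given as CPM, its count scaled to the total count of the library. Gene positions are those of GENCODE 29 on GRCh38. All 10 were counted in every library, with between 6 and 4692 reads per gene and library.

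T cells recognise antigen through a receptor whose signal is carried by the CD3 chains, with CD4 or CD8 as co-receptor. Cytotoxic T cells and natural killer cells (NK cells) kill their targets with granules that hold granzymes and perforin. Regulatory T cells, set by the transcription factor FOXP3 and rich in the inhibitory receptor CTLA4, restrain both. These cells are regular infiltrates of oral squamous carcinomas and of the lining of the mouth, and they are not a component of a cultured epithelial line.

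The labels give 2 groups of 4 libraries, all from HSC3, an established line of human oral squamous cell carcinoma. In the knockdown group the cells received an siRNA against COL1A1 (si-Col1a1) and in the control group si-NC, each at 100 pmol with Lipofectamine 3000, and RNA was taken after 48 hours. The series asks what loss of COL1A1 does to the spread and epithelial-mesenchymal transition of these cells. No source says whether the 4 libraries under a label were grown separately. The p-values therefore measure the spread between libraries, whose source is not given and was not tested. Within the control label alone, the share of counts in skeletal muscle genes ran from 0.00344% (control 4) to 15.4% (control 1).

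Library totals lay between 30684584 and 61795990 counts. COL1A1, the siRNA target, stood at 368, 123, 301 and 155 CPM in knockdown 1 to 4 and at 88.9, 8183, 476 and 689 CPM in control 1 to 4, and the groups overlapped (log2 fold change -2.97, SE 1.30, edgeR adjusted p = 0.981). Control 1 was lower than all 4 knockdown libraries. The levels also went against the label of a single epithelial line. TTN, the giant protein of the muscle sarcomere, took 17.4 to 30587 CPM in knockdown and 21.2 to 97646 CPM in control, and 4 libraries (knockdown 2, knockdown 4, control 1 and control 3) had over 1% of their counts in skeletal muscle or salivary gland genes. KRT5, a keratin of basal squamous cells, was present throughout but ran from 274 to 19772 CPM in knockdown and from 109 to 16795 CPM in control. In bulk RNA of this kind, fewer cells of a type and less RNA per cell cannot be told apart.

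Promoter sequences were available for 8 of the 10 genes from RefSeq (GRCh38.p14), as 300 bases from 250 before to 50 after the annotated start. The 4 shown here are those of single-start genes that hold at least 1 of the short motifs searched on both strands, namely the RUNX core TGTGGT, the ETS core GGAAGT, the GATA core AGATAA and the NFAT core GGAAAA. Capitals mark the motifs, and none of the matches overlapped. CD3D lies on the minus strand at chr11:118342656-118342955, GZMB on the minus strand at chr14:24634141-24634440, CTLA4 on the plus strand at chr2:203867521-203867820 and PTPRC on the plus strand at chr1:198638790-198639089.
CD3D: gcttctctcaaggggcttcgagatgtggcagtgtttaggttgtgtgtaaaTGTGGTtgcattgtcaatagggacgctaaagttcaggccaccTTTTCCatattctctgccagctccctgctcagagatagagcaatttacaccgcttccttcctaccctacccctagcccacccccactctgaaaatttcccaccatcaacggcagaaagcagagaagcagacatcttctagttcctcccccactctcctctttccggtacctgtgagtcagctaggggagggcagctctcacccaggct
GZMB: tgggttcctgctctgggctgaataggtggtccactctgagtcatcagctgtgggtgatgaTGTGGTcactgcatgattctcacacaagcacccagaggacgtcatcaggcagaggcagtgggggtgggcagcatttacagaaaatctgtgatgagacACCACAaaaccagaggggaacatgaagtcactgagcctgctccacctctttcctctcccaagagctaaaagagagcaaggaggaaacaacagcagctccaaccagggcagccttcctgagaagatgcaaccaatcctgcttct
CTLA4: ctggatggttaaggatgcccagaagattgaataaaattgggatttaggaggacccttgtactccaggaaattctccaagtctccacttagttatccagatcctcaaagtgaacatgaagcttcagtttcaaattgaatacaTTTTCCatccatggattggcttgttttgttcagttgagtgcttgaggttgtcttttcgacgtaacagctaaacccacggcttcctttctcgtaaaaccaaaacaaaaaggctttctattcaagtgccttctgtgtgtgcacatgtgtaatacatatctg
PTPRC: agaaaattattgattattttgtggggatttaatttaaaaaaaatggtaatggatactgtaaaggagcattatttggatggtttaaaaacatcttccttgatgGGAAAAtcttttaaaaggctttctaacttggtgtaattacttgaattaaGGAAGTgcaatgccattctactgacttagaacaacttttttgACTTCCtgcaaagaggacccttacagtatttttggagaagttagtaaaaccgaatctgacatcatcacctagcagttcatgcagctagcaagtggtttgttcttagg

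GZMB held the RUNX core in both orientations, starting at positions -190 and -93 from the start site, and CD3D held it at -200 beside an NFAT core at -158. CTLA4 held an NFAT core alone, at -109, while PTPRC held ETS cores at -99 and -57 and an NFAT core at -148. Of 35116 promoters of the same length, 13.1% held the RUNX core, 22.8% the ETS core, 10.3% the GATA core and 24.0% the NFAT core. No match was found in these windows of CD2, NKG7 and FOXP3. CD8A has 4 annotated starts, and an NFAT core stood before 1 of them. CD3E and CD4 had no entry.

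CD3E (ENSG00000198851.10, chr11:118304545-118316175, plus strand) and CD3D (ENSG00000167286.11, chr11:118338954-118342744, minus strand) encode chains of the CD3 complex, and CD2 (ENSG00000116824.5, chr1:116754385-116769228, plus strand) encodes an adhesion receptor of T and NK cells. CD3E stood at 5.07, 8.25, 5.38 and 4.11 CPM in knockdown 1 to 4 and at 2.34, 16.0, 5.52 and 1.73 CPM in control 1 to 4. Control 2 was the highest of the 8 and control 4 the lowest, so the knockdown values lay inside the control range. CD3D stood at 2.29, 1.96, 1.54 and 1.84 CPM in knockdown and at 0.788, 6.80, 1.24 and 0.192 CPM in control. The 10 CD3D reads of control 4 give a 95% Poisson interval of 0.0922 to 0.354 CPM (counting error only), below the value of every other library. CD2 stood at 3.04, 4.01, 3.24 and 3.01 CPM in knockdown and at 1.20, 8.09, 2.23 and 1.11 CPM in control. For CD3D and CD2, the 4 knockdown libraries lay close together, above 3 of the controls and below control 2.

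PTPRC (ENSG00000081237.21, chr1:198638457-198757476, plus strand) encodes CD45, the tyrosine phosphatase of nearly all white blood cells. Its level was 21.0, 30.4, 17.5 and 11.8 CPM in knockdown 1 to 4 and 10.96, 75.9, 28.4 and 29.3 CPM in control 1 to 4. CD4 (ENSG00000010610.10, chr12:6786858-6820808, plus strand) encodes the co-receptor of helper and regulatory T cells and is also made by human monocytes and macrophages. It stood at 13.3, 16.7, 16.6 and 6.17 CPM in knockdown and at 11.8, 66.3, 14.6 and 39.3 CPM in control. Control 4, the lowest library for CD3E, CD3D and CD2, was the second highest for CD4. Both genes overlapped between the groups.

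CD8A (ENSG00000153563.17, chr2:86784610-86808396, minus strand) encodes the co-receptor of cytotoxic T cells. It stood at 2.86, 3.85, 1.97 and 4.63 CPM in knockdown 1 to 4 and at 3.75, 9.92, 3.23 and 1.94 CPM in control 1 to 4, the smallest spread of the 10 genes, with the highest library 5.11-fold above the lowest. NKG7 (ENSG00000105374.10, chr19:51371606-51372715, minus strand), a granule membrane protein of NK and cytotoxic T cells, stood at 1.30, 1.43, 0.603 and 1.12 CPM in knockdown and at 0.761, 7.06, 0.868 and 0.269 CPM in control. Control 2 was 4.92-fold above the next library for NKG7. GZMB (ENSG00000100453.14, chr14:24630954-24634267, minus strand), the granule protease granzyme B, stood at 1.76, 0.815, 3.95 and 0.521 CPM in knockdown and at 0.326, 10.3, 0.837 and 0.481 CPM in control. Knockdown 3 came second for GZMB although it was low for CD8A and for NKG7 (22 reads). Second place went to knockdown 4 for CD8A and to knockdown 2 for NKG7, so these genes did not keep a common order of libraries.

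FOXP3 (ENSG00000049768.18, chrX:49250436-49264826, minus strand) stood at 2.69, 0.326, 2.66 and 0.767 CPM in knockdown 1 to 4 and at 0.462, 3.66, 0.465 and 0.615 CPM in control 1 to 4. CTLA4 (ENSG00000163599.18, chr2:203867771-203873965, plus strand) stood at 2.97, 0.326, 3.21 and 0.164 CPM in knockdown and at 0.163, 5.65, 0.682 and 0.846 CPM in control. Both were high in knockdown 1, knockdown 3 and control 2 and under 1 CPM in the other 5 libraries. The lowest CTLA4 values rest on 6 reads each in knockdown 4 and control 1, with intervals of 0.0603 to 0.358 and 0.0599 to 0.355 CPM, and FOXP3 and CTLA4 had 10 reads each in knockdown 2. A stretch of 91 bases of FOXP3 exons, 3.44% of their length, overlaps exons of CCDC22 on the opposite strand in GENCODE 29, and the strand setting of the counting is not given in the sources used here. No exon of the other 9 genes overlapped an exon of another gene in that annotation.

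**Figure D1:**
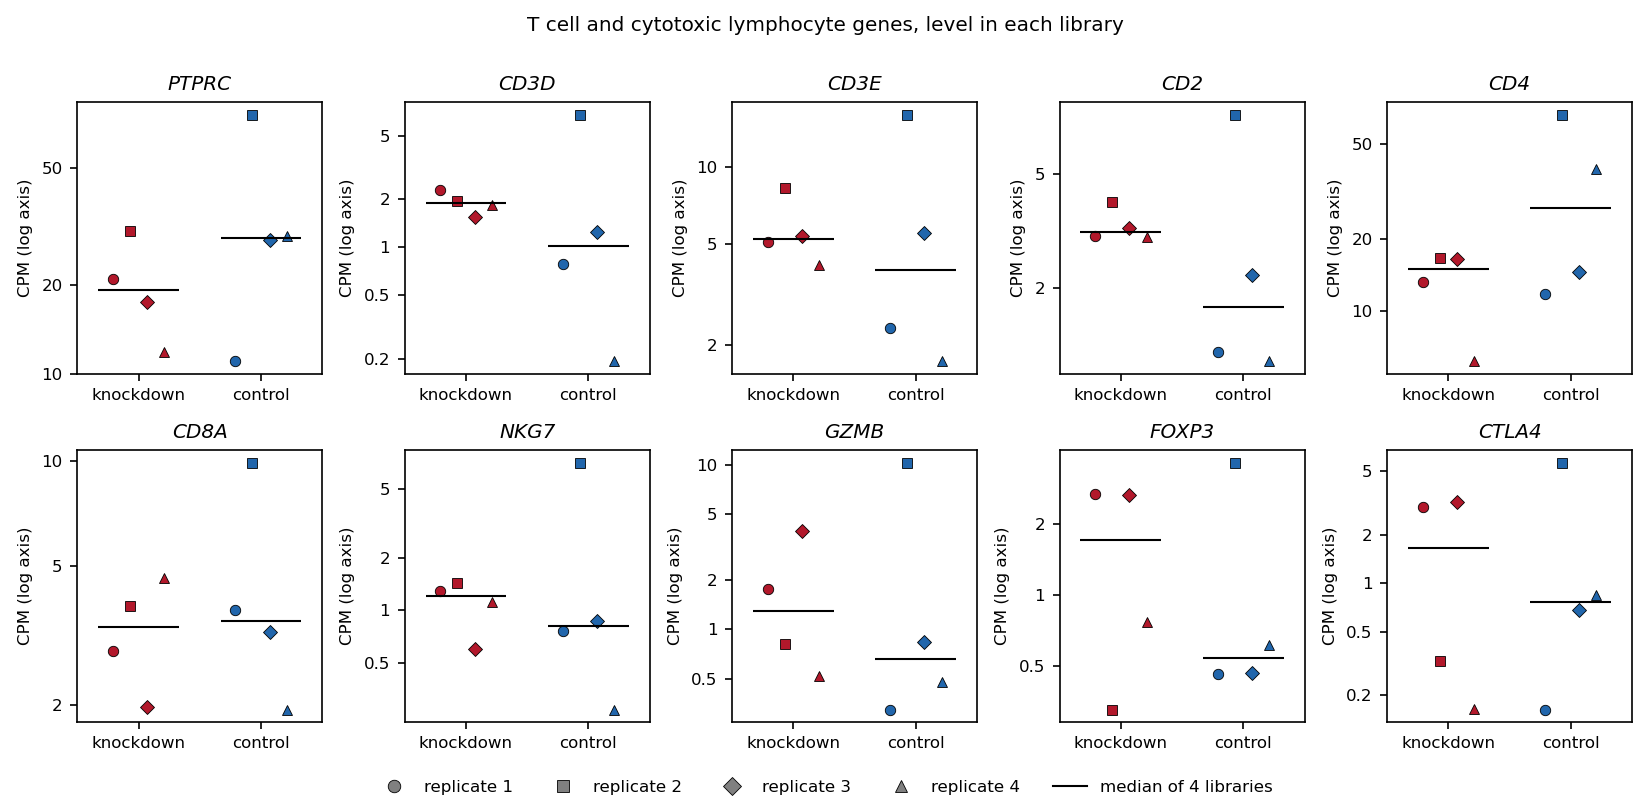
Each panel plots the level of a gene in CPM, on a log axis with its own range, for the 4 knockdown libraries (red) and the 4 control libraries (blue), with a line at the median of each group. Control 2 (blue square) is the highest point of all 10 panels, and the groups overlap in each.

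Per kilobase of exon, the median over the 8 libraries was highest for CD4 (3.41 CPM per kb) and PTPRC (2.70), followed by CD3E (1.84), CD3D (1.82) and CD2 (1.80). NKG7 (1.07) and CD8A (0.960) came next, and GZMB (0.585), CTLA4 (0.357) and FOXP3 (0.261) were lowest. The ranges over libraries of neighbouring genes overlapped throughout this order, from 1.35 to 14.5 CPM per kb for CD4 and from 0.123 to 1.38 for FOXP3. CD3E, CD3D and CD2 could not be ranked among themselves.

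Between the labels, 0 of the 10 genes passed the test (edgeR's quasi-likelihood test, Benjamini-Hochberg adjusted p under 0.05), with a background of 0% among the 21192 genes tested. None of the 10 had an unadjusted p under 0.05 either, where 4.78% of all genes did. The groups did not overlap for 0 of the 10, against 2.35% of all genes (0.882% with every knockdown library above every control library and 1.47% below). Limma-voom also called none of the 10. DESeq2 called none of the 9 to which it gave an adjusted p (it gave none to CD2), where it called 0.588% of the genes with one.

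Fitted values were above 0 for 4 of the 10 genes and below 0 for 6, with a median log2 fold change of -0.18, beside 46.8% above 0 and a median of -0.046 over all genes tested. CD4 had the largest fitted difference, at 13.2 ± 4.95 CPM in knockdown and 33 ± 25.4 CPM in control (SD, n = 4 per label). Its log2 fold change was -1.07 (SE 0.604, edgeR adjusted p = 0.981). NKG7 averaged 1.11 ± 0.363 CPM in knockdown and 2.24 ± 3.22 CPM in control, with a log2 fold change of -0.82 (SE 0.933, edgeR adjusted p = 0.987). For PTPRC the means were 20.2 ± 7.81 CPM in knockdown and 36.2 ± 27.8 CPM in control, and the log2 fold change was -0.62 (SE 0.531, edgeR adjusted p = 0.981). FOXP3 went the other way, with 1.61 ± 1.24 CPM in knockdown and 1.30 ± 1.57 CPM in control and a log2 fold change of 0.68 (SE 0.982, edgeR adjusted p = 0.993). The remaining log2 fold changes were -0.37 for CD8A, -0.35 for GZMB, -0.013 for CD3D, 0.056 for CD3E, 0.29 for CTLA4 and 0.30 for CD2, with standard errors between 0.564 and 1.25. For each of the 10 genes, a difference of 1 log2 unit was smaller than 2 standard errors, so a change of that size was not detectable here.

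The fitted values depended on control 2. Without it, 9 of the 10 log2 fold changes were above 0 and the median was 1.18, though none of the 10 passed the test. Over all genes, 48.1% were above 0 in that fit, with a median of -0.031. Control 2 was the highest library for all 10 genes, so leaving it out raises their fitted values by construction. GZMB then stood at 2.07 (SE 0.947), CTLA4 at 1.98, FOXP3 at 1.96, CD3D at 1.55 and CD2 at 1.33, each with an edgeR adjusted p of 0.989, while CD4 stood at -0.51. In the 3 other control libraries CD4 averaged 21.9 ± 15.1 CPM, PTPRC 22.9 ± 10.35 CPM, CD2 averaged 1.51 ± 0.623 CPM and CD3D 0.740 ± 0.526 CPM (SD, n = 3).

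**Figure D2:**
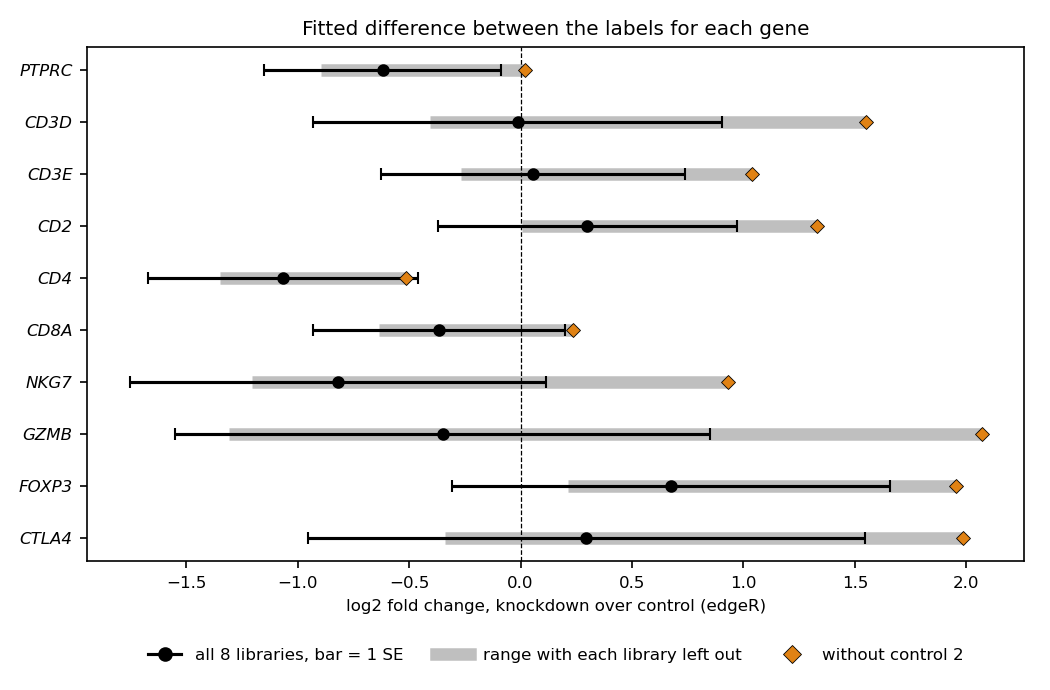
Points give the fitted log2 fold change of knockdown over control with 1 standard error, grey bars the range when each library is left out in turn, and diamonds the value without control 2. The diamond is the right-hand end of each grey bar, and CD4 is the gene whose whole grey bar lies below 0 (-1.35 to -0.51).

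Control 2 was the highest library for all 10 genes, where it was the highest for 15.1% of the 21192 genes tested. It exceeded the median of the other 7 libraries by 2.68-fold for CD2 and 3.16-fold for CD3E, by 8.13-fold for NKG7 and 8.28-fold for CTLA4, and by 12.6-fold for GZMB. The 10 genes together took 56.3, 68.1, 56.6 and 34.1 CPM in knockdown 1 to 4 and 32.5, 210, 58.1 and 75.8 CPM in control 1 to 4. Control 2 also had the highest summed level of macrophage and dendritic cell genes (without LYZ, a gland product as well, 52.4 to 263 CPM in knockdown and 157 to 981 CPM in control) and of fibroblast genes (447 to 1212 CPM in knockdown and 1114 to 13975 CPM in control). All 13 fibroblast markers were counted in every library, and between 15 and 17 of the 17 macrophage markers. The macrophage marker CD68 had 0 reads in 5 of the 8 libraries, but 81.7% of its exon bases lie within another annotated gene on the same strand. The part of these cell types in the levels of the lymphocyte genes was not tested.

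**Figure D3:**
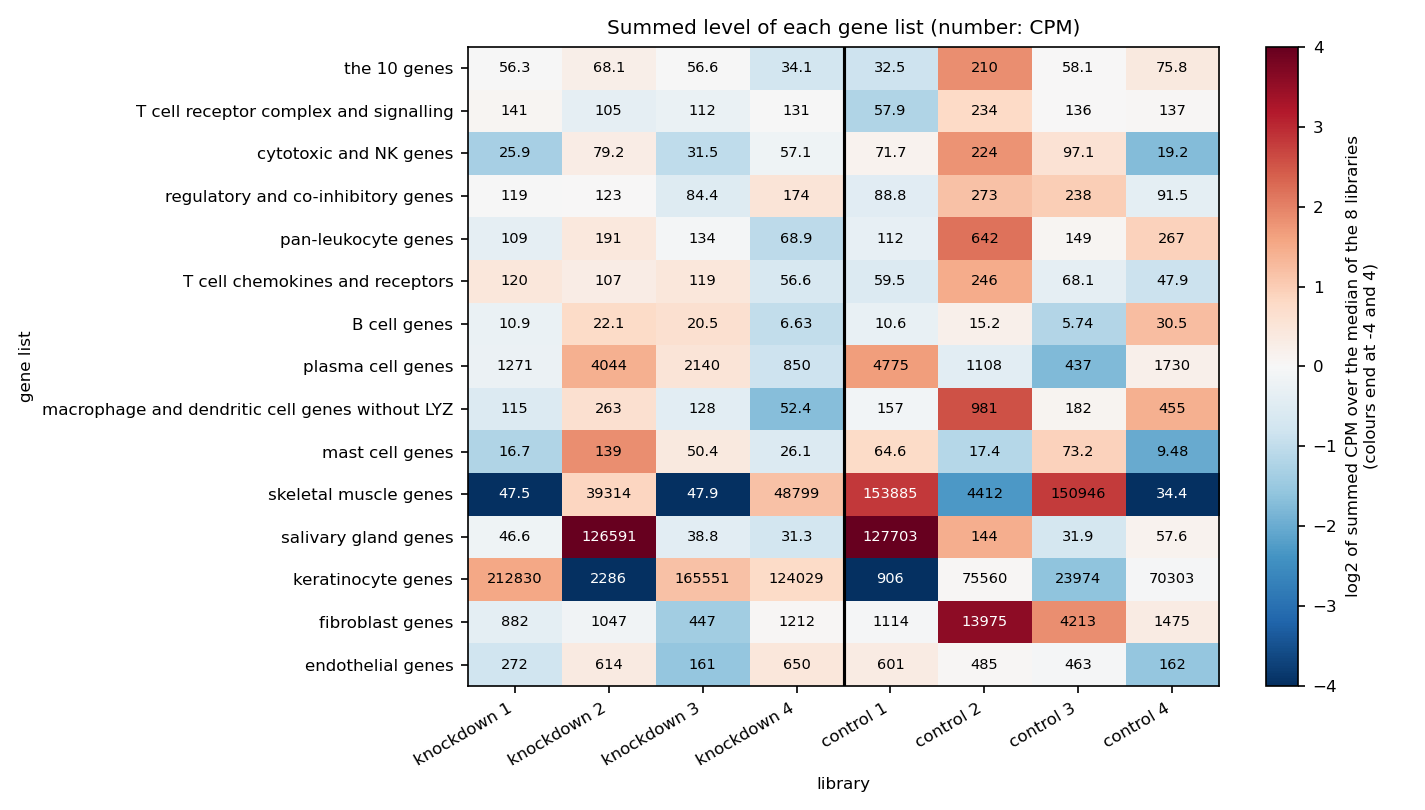
Each cell prints the summed CPM of a gene list in a library, and its colour gives the log2 ratio to the median of the list over the 8 libraries. Control 2 is the darkest red of its row for the 10 genes (210 CPM), for pan-leukocyte genes (642 CPM) and for macrophage genes (981 CPM), while muscle and gland genes peak in other libraries.

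Relative to CD3E, the other 9 genes varied to different degrees over the libraries, and CD2 varied least. CD2 per CD3E, a ratio of CPM values not corrected for length, was 0.600, 0.486, 0.602 and 0.733 in knockdown 1 to 4 and 0.512, 0.506, 0.404 and 0.644 in control 1 to 4, a range of 1.81-fold. Its level thus followed CD3E closely while both varied several-fold. NKG7 per CD3E ranged over 3.93-fold, CD3D over 4.07-fold, CD8A over 4.37-fold, PTPRC over 5.91-fold and GZMB over 7.44-fold. CD8A per CD3E was 0.564, 0.466, 0.367 and 1.13 in knockdown and 1.60, 0.620, 0.584 and 1.12 in control, so knockdown 4 and controls 1 and 4 had the most CD8A for their CD3E.

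CTLA4 and CD4 per CD3E each ranged over 15.1-fold and FOXP3 over 13.4-fold. FOXP3 per CD3E was 0.531, 0.0395, 0.495 and 0.187 in knockdown and 0.198, 0.229, 0.0843 and 0.356 in control. CTLA4 per CD3E was 0.587, 0.0395, 0.597 and 0.040 in knockdown and 0.0698, 0.353, 0.124 and 0.489 in control. Both ratios were higher in the 4 libraries with at most 1% of counts in muscle or gland genes (knockdown 1, knockdown 3, control 2 and control 4) than in any of the 4 above it. GZMB per CD3E had the same split, at 0.348, 0.0988, 0.735 and 0.127 in knockdown and 0.140, 0.643, 0.152 and 0.278 in control. The remaining ratios to CD3E did not split this way, and the share of all genes that would was not determined. For FOXP3 the split was narrow, at 0.229 in control 2 beside 0.198 in control 1. FOXP3 had 17 reads in control 1, with an interval (0.269 to 0.740 CPM) wide enough to close that gap. The split by muscle and gland share was made after the ratios were seen and is not a group of the study, and its part in them was not tested.

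CD4 per CD3E was 2.62, 2.03, 3.09 and 1.50 in knockdown 1 to 4 and 5.05, 4.15, 2.65 and 22.7 in control 1 to 4. Control 4 stood apart, with 39.3 CPM of CD4 beside 1.73 CPM of CD3E. CSF1R, the receptor of macrophage colony-stimulating factor, had 25.6, 41.4, 26.6 and 15.2 CPM in knockdown and 34.2, 191, 41.8 and 89.4 CPM in control, with control 4 second. CD4 per CSF1R, a pair set side by side after their values were seen, was 0.517, 0.404, 0.625 and 0.407 in knockdown and 0.345, 0.348, 0.350 and 0.439 in control, a range of 1.81-fold. Other macrophage genes did not all share the order of CSF1R. C1QC also had control 4 second (64.9 CPM), while MSR1 was highest there (76.3 CPM). Knockdown 2 was above control 4 for CD14 (42.8 and 28.4 CPM) and CD163 (37.2 and 21.8 CPM). The part of macrophages in the level of CD4 was not tested.

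**Figure D4:**
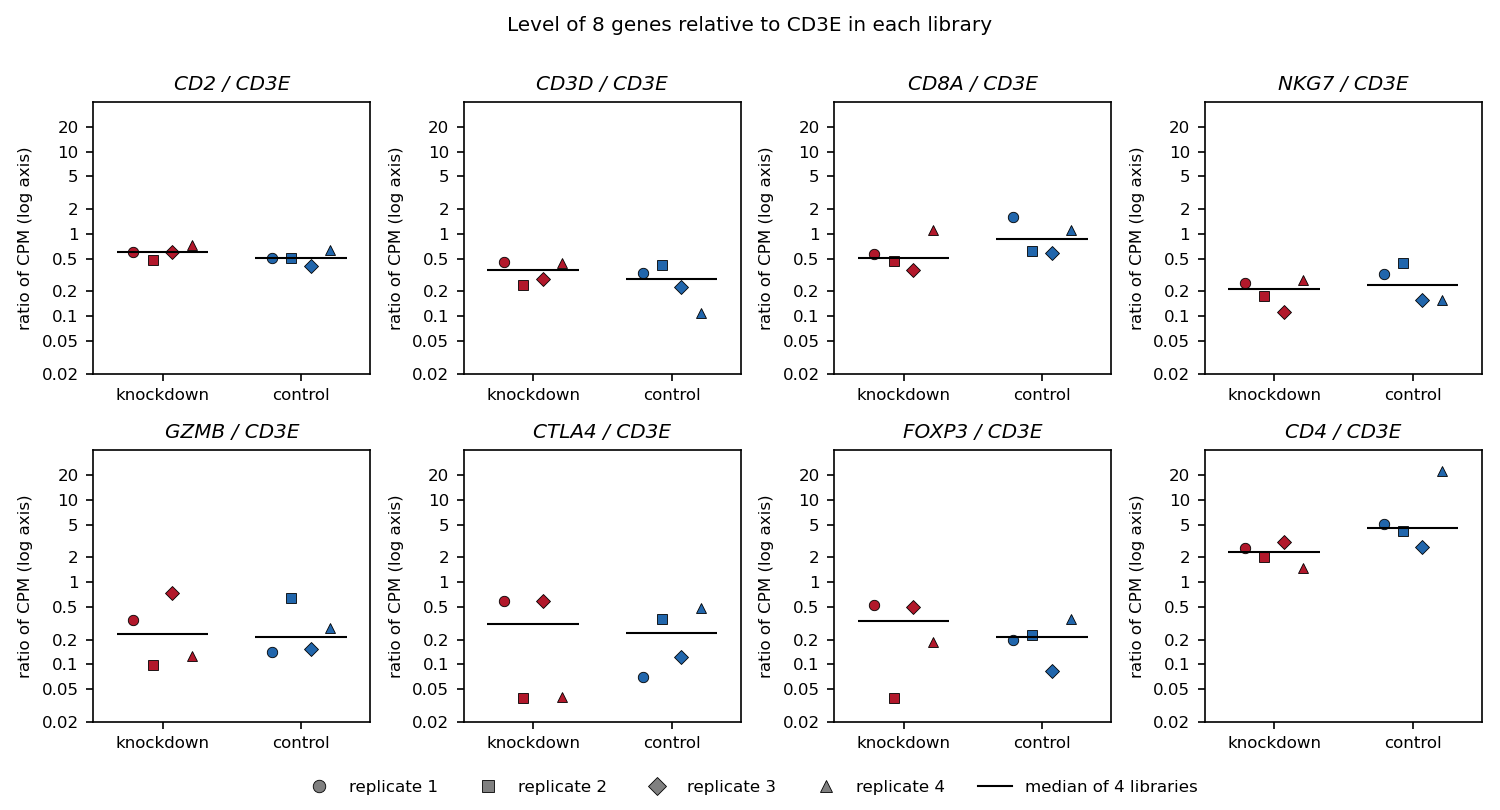
Each panel plots the CPM of a gene divided by the CPM of CD3E in the same library, on a shared log axis, for knockdown (red) and control (blue) libraries with a line at the median of each group. CD2 varies over 1.81-fold, FOXP3 and CTLA4 over 13.4-fold and 15.1-fold, and CD4 per CD3E reaches 22.7 in control 4 (blue triangle).

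Of 25 other genes of the T cell receptor complex and its signalling in the table, 24 were tested and 0 passed, 13 with a fitted value above 0 and 11 below, and a median log2 fold change of 0.073. Control 2 was the highest library for 16 of the 25. Without it 22 of the 24 were fitted above 0 (median 0.61), beside 48.1% of all genes, and 0 passed. BCL11B, the most abundant and a T cell factor that keratinocytes make as well, stood at 72.3, 9.71, 42.4 and 58.2 CPM in knockdown and at 5.19, 50.6, 43.7 and 93.8 CPM in control, lowest in the libraries with least keratin. In the other libraries it did not keep the order of the summed keratinocyte genes (70303 CPM in control 4, 212830 CPM in knockdown 1). The part of keratinocytes in its level was not tested. TCF7, a Wnt-pathway factor of naive T cells, peaked at 42.8 CPM in control 3, and the adaptor LCP2 at 32.8 CPM in control 2. LAT, the adaptor that links the receptor to its signalling, was at most 0.129 CPM, and 47.7% of its exon bases lie within another annotated gene on the same strand.

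Of 28 other cytotoxic and NK genes 20 were tested and 0 passed, 6 fitted above 0 and 14 below, with a median of -0.26. Control 2 was the highest library for 16 of the 28. Without it 15 of the 20 were fitted above 0 (median 0.66), beside 48.1% of all genes, and 0 passed. NCAM1, an NK cell marker that muscle also makes, was the most abundant, at 0.714, 35.0, 0.466 and 33.3 CPM in knockdown and 49.5, 24.0, 72.2 and 0.0577 CPM in control, low in the 3 libraries with least muscle RNA. The part of muscle in its level was not tested. FCGR3A, an antibody receptor of NK cells and macrophages, peaked at 38.5 CPM in control 2, as did CCL5, a chemokine of cytotoxic lymphocytes, at 30.9 CPM. The granule genes GNLY, PRF1 and GZMA, chosen after their values were seen, stood at 46.1, 27.2 and 17.1 CPM in control 2. In the other 7 libraries GNLY was at most 3.29 CPM, PRF1 at most 2.91 CPM and GZMA at most 1.12 CPM. Other genes of the list peaked elsewhere. CD8B was highest in control 1 (1.60 CPM, beside 1.33 CPM in control 2). KLRD1 was highest in knockdown 2 (6.06 CPM, beside 2.59 CPM in control 2), as were KLRB1, KLRG1, KLRF1, CD160 and EOMES.

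Of 18 regulatory and co-inhibitory genes 16 were tested and 0 passed, 3 fitted above 0 and 13 below, with a median of -0.64, and control 2 was the highest for 14 of the 18. Without it 11 of the 16 were fitted above 0 (median 0.51), beside 48.1% of all genes, and 0 passed. IKZF2, a factor of regulatory T cells, was the most abundant and did not follow FOXP3, with 56.1, 60.1, 32.2 and 115 CPM in knockdown and 20.6, 43.9, 169 and 18.1 CPM in control. Its mean over the 8 libraries was 64.4 CPM, beside 6.05 CPM for CD3E and 1.46 CPM for FOXP3. The cells it came from were not tested. The ectonucleotidase ENTPD1 and LRRC32, which docks latent TGF-beta, peaked in control 2 at 32.4 and 37.1 CPM. Among 18 pan-leukocyte genes 17 were tested, all 17 were fitted below 0 and 0 passed, with a median of -0.57. Control 2 was the highest library for 13 of the 18, and without it 9 of the 17 were fitted above 0 (median 0.045) and 0 passed. The lysosomal protein LAPTM5 averaged 20.6 ± 8.93 CPM in knockdown and 69.8 ± 71.8 CPM in control, and the integrin chain ITGB2 16.2 ± 5.14 and 63.6 ± 58.0 CPM (SD, n = 4 each). DOCK2, a guanine nucleotide exchange factor of blood cells, averaged 14.2 ± 7.20 CPM in knockdown and 30.5 ± 22.0 CPM in control. Without control 2 the control means were 37.7 ± 39.5 CPM for LAPTM5, 35.9 ± 20.7 CPM for ITGB2 and 19.7 ± 4.63 CPM for DOCK2 (SD, n = 3). PTPRCAP, a partner of CD45, had 0 reads in all 8 libraries, and 100% of its exon bases lie within CORO1B on the same strand.

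Of 17 chemokines and receptors of T cell traffic 15 were tested and 0 passed, 9 fitted above 0 and 6 below, with a median of 0.12. Without control 2, 10 were fitted above 0 (median 0.21), beside 48.1% of all genes. CXCL9, a T cell attractant induced by interferon-gamma, stood at 42.0, 7.23, 39.9 and 0.219 CPM in knockdown and at 1.58, 93.3, 0.930 and 2.96 CPM in control. It was highest in control 2, knockdown 1 and knockdown 3, the libraries with the most FOXP3 and CTLA4. The receptors CXCR4 and S1PR1 peaked in knockdown 2, at 23.7 and 29.9 CPM.

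Likeness to CD3E was measured as the root mean square difference between profiles over the 8 libraries, after centring log2(CPM + 0.5), among 16579 other genes with a symbol and a mean of at least 1 CPM. The 5 nearest were CD2 (0.239 log2 units), CCND2 (0.281), the antisense gene RDH10-AS1 (0.314), CD3D (0.335) and CAMK4 (0.380). CCND2 is cyclin D2 and CAMK4 a calcium-dependent kinase of T cells and neurons. NKG7 ranked 22 in nearness to CD3E and CD8A 175, while PTPRC ranked 395, GZMB 1313, FOXP3 3131, CTLA4 6675 and CD4 7832. The 5 nearest to NKG7 were SLC2A12 (0.255), CCND2 (0.300), CD96 (0.322), APOBEC3G (0.328) and CD3D (0.336). SLC2A12 is a glucose transporter, CD96 a receptor of T and NK cells, and APOBEC3G an antiviral cytidine deaminase. CD8A ranked 15 in nearness to NKG7 and GZMB 1619. With a pseudocount of 2 CPM the nearest genes differed in part, and 3 of 5 for CD3E and 1 of 5 for NKG7 were shared. In nearness to CD3E, NKG7 then ranked 15, CD8A 141, GZMB 256, PTPRC 658, FOXP3 850, CTLA4 981 and CD4 9158, so GZMB stood before PTPRC and the ranks of the low genes depended on the pseudocount. In nearness to NKG7, CD8A ranked 13 and GZMB 754.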

How the data were processed

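RNA of 8 libraries was sequenced, 4 per label. The molecule is given as polyA RNA, but the extraction protocol in the labels removes ribosomal RNA. The deposited values are raw read counts for each gene, as whole numbers. STAR, featureCounts, Subread and hg38 are named in the submitters' processing notes, with tool versions, gene annotation and strandedness not given in the sources used here. Knockdown columns carry the letters KO and their titles KD, and columns were matched to titles by group and number.

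Symbols were matched to 62666 of 63241 rows by Ensembl identifier without version. CPM used column totals. Knockdown was compared with control in edgeR 4.0.16 (R 4.3.3; TMM, filterByExpr, quasi-likelihood test, group as the only term), and p-values were adjusted over the 21192 genes kept. The standard error is the absolute log2 fold change over the square root of F. DESeq2 1.42.0 and limma 3.58.1 were alternatives. The fits were tested on simulated data, and nothing stated here on their behaviour at the spread of these libraries rests on that. Exon lengths, overlaps and coordinates came from GENCODE 29 (GRCh38, the assembly of hg38), an annotation other than that of the table. Poisson intervals (95%) cover counting error only. Analyses used Python 3.11.15 and scipy 1.17.1.

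The 10 genes and the 14 other lists were chosen with earlier results of these data known. The genes named by rule were all 10, COL1A1, the 3 most abundant genes of each list and the 5 nearest genes to CD3E and to NKG7; not all of those from muscle, gland, keratinocyte, fibroblast and endothelial lists are printed. Other settings were other tests, scalings and filters, a replicate block, leaving out each library, leaving out those rich in muscle or gland RNA, muscle share as a covariate, and another pseudocount.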

Additional observations from a re-analysis of the deposited data

Results flagged for a closer look

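In 20 groups of 4 libraries (10 genes, both labels), 6 held a library far from the other 3 by Dixon's criterion, applied to CPM. For normally distributed values the criterion marks about 1 group in 20, a rate that need not hold for CPM. The share of all genes so marked was not determined. In all 6 groups the library was control 2, the highest control library. It stood at 6.80 CPM for CD3D, 8.09 CPM for CD2, 7.06 CPM for NKG7, 10.3 CPM for GZMB, 3.66 CPM for FOXP3 and 5.65 CPM for CTLA4. The next control libraries stood at 1.24, 2.23, 0.868, 0.837, 0.615 and 0.846 CPM for these genes. All 6 values come from a single library, so they are not independent of each other. No group of knockdown libraries held such a library.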

How the results depend on the processing

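None of the 10 genes passed the test under any other fit run (DESeq2 gave CD2 no adjusted p). The lowest adjusted p was 0.415, for CD4 without the 4 libraries rich in muscle or gland RNA. Over all genes, edgeR called 0, DESeq2 146, and 0 to 1 with each library left out (1 without knockdown 2). The median log2 fold change of the 10 was -0.18, ran from -0.52 (without control 4) to 1.18 (without control 2) with each library left out, and was 0.23 by limma-voom and 0.40 with the replicate block. Of 167 values for single genes under other settings, 136 kept their direction and 31 turned. With each library left out, values ran from -0.89 to 0.022 for PTPRC, -0.41 to 1.55 for CD3D, -0.27 to 1.04 for CD3E, 0.0085 to 1.33 for CD2, -0.63 to 0.24 for CD8A, -1.20 to 0.93 for NKG7, -1.31 to 2.07 for GZMB, 0.21 to 1.96 for FOXP3 and -0.34 to 1.98 for CTLA4, while CD4 stayed below 0. Under limma-voom, CD3D was at 0.96, NKG7 at 0.14 and GZMB at 0.32. The replicate block gave 1.07 for CD3D, 0.23 for NKG7 and 0.79 for GZMB and called 0 genes. Libraries sharing a number did not deviate together (correlations of -0.656, -0.479, -0.372 and -0.399), so the numbers were not taken as pairs. RLE factors gave 0.011 for CD3D, and a filter of 1 CPM in 4 libraries 0.024 (it removed GZMB, FOXP3 and CTLA4). Library totals, which moved the median of all genes by -0.16, gave -0.16 for CD3E and -0.14 for CTLA4, and 35.9% of all genes fitted above 0 in place of 46.8%. Testing every gene with a count gave -0.014 for CD3E. Without those 4 libraries, CD3E was at -0.27 and CD2 at -0.062. With muscle share as a covariate, FOXP3 was at -0.39 and CTLA4 at -1.64. With 2 CPM as pseudocount, 3 of the 5 genes nearest CD3E and 1 of the 5 nearest NKG7 remained. The causes were not tested. Low counts limit FOXP3, CTLA4, GZMB, CD3D and NKG7, with 10 of the 80 values at 20 reads or fewer.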

Other observations

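Control 2, the library with the most of all 10 lymphocyte genes, was also the highest for 13 of 18 pan-leukocyte genes and 12 of 18 macrophage and dendritic cell genes. It was the highest for 1 of 12 B cell genes, 1 of 12 plasma cell genes and 0 of 8 mast cell genes, beside 15.1% of all genes tested. The B cell genes summed to 10.9, 22.1, 20.5 and 6.63 CPM in knockdown 1 to 4 and to 10.6, 15.2, 5.74 and 30.5 CPM in control 1 to 4. PAX5, a B cell factor, made up 24.7 CPM of control 4, while BANK1, a B cell scaffold protein, and TNFRSF13C, the BAFF receptor, peaked at 5.34 CPM in knockdown 2 and 3.59 CPM in knockdown 3. MS4A1, the B cell antigen CD20, chosen after its values were seen, stood at 0.0997, 2.09, 2.17 and 0.877 CPM in knockdown and at 0.381, 0.356, 0.310 and 0.115 CPM in control. Its log2 fold change of 2.33 was the largest of the B cell genes tested. Of these, 6 were fitted above 0 and 3 below, beside 46.8% above 0 over all genes. The 3 below were CD79A (-0.014), CD79B (-0.39) and PAX5 (-0.60). IGHA1, the constant region of IgA, was at 867 CPM in knockdown 2 and 2072 CPM in control 1, the libraries rich in gland RNA, and at most 52.7 CPM elsewhere. SDC1, which epithelium also makes, peaked at 1665 CPM in control 4, and XBP1, a factor of secretory cells, at 1723 CPM in knockdown 2. Of the mast cell genes, the receptor KIT peaked at 119 CPM in knockdown 2, and the protease CPA3 and the factor GATA2 at 13.1 and 7.04 CPM in control 3. By edgeR 0 of 9 B cell, 0 of 10 plasma cell and 0 of 8 mast cell genes tested passed. Of them 2, 0 and 0 had an unadjusted p under 0.05, beside 4.78% of all genes tested.

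The lists of other tissues also held no gene that passed. Over all genes tested by edgeR, 46.8% were fitted above 0 and 4.78% had an unadjusted p under 0.05. All 18 keratinocyte genes were fitted above 0 (median log2 fold change 1.84; 1 with an unadjusted p under 0.05), and KRT6A stood at 67.6 to 42475 CPM in knockdown and 10.4 to 16359 CPM in control. All 13 fibroblast genes were fitted below 0 (median -1.85, or -0.82 without control 2; 8 with an unadjusted p under 0.05), and COL1A2 stood at 127 to 244 CPM in knockdown and 214 to 5108 CPM in control. Of 17 macrophage and dendritic cell genes 15 were fitted below 0 (median -1.33, or -0.70 without control 2; 6 with an unadjusted p under 0.05), and C1QC stood at 5.89 to 34.9 CPM in knockdown and 17.9 to 198 CPM in control. All 16 muscle genes were fitted below 0 (median -1.86) and 6 of 12 endothelial genes above 0 (median -0.0094), 0 of either with an unadjusted p under 0.05. Of 7 gland genes tested 5 were fitted above 0 (median 2.94), 1 with an unadjusted p under 0.05. Without control 2 the filter kept 8 gland genes, 4 fitted above 0 and 4 below (median 1.19), so these medians cover different sets of genes.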
